A study of Rattus norvegicus with 18 samples.

Results

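The structural core of the basement membrane, other than the laminins, was followed in primary rat Schwann cells given vitamin C and in untreated controls. The members are 10 genes, chosen by name and with earlier results of these data known. They include the type IV collagen chains Col4a1, Col4a2, Col4a3, Col4a4 and Col4a5 and the type XVIII collagen Col18a1. The others are the nidogens Nid1 and Nid2 and the heparan sulfate proteoglycans Hspg2 (perlecan) and Agrn (agrin). All 10 had a row among the 32883 genes of the RNA table, and the peak list gave them 156 of its 215951 peaks of 5-hydroxymethylcytosine. Hspg2 stands in the peak list under a clone name that RefSeq gives as a synonym of Hspg2. Primary Schwann cells were studied at passage 3, as a vitamin C group and as a control group without it, with 3 libraries each for RNA, for DNA precipitated with an antibody against 5-hydroxymethylcytosine (hMeDIP) and for unprecipitated input DNA. The strain, age and sex of the rats, the dose and the length of treatment are not in the labels, and nothing there says that replicates came from separate cultures, so the spread behind each p-value is that of these libraries and may be technical. The RNA libraries had 23381814 to 33173282 reads in genes, the hMeDIP libraries 24020306 to 39899445 reads in peaks and the input libraries 7201638 to 9521037 reads in peaks.

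Basement membranes are sheets of matrix in which a laminin network and a type IV collagen network lie side by side, with nidogens and perlecan bridging them. Type IV collagen is built from heterotrimers, of which α1α1α2 is the general one and α3α4α5 the one known from kidney glomeruli and some other specialised sites. Schwann cells lay down such a sheet around themselves before they myelinate, and in culture this step has long been known to need ascorbate, a cofactor of the enzymes that hydroxylate collagen chains and also of the TET enzymes that make 5-hydroxymethylcytosine.

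The collagen IV genes lie in head-to-head pairs, so that a single short interval serves the starts of both partners. In the rat assembly GRCr8, as RefSeq annotates it, the starts of Col4a1 and Col4a2 are separated by 76 bases, and those of Col4a3 and Col4a4 by 412 bases. The RefSeq windows of 250 bases before the start were read for 9 of the 10 members, and no window for Nid2 was among them. Shown here are the interval of the chains that both rose in RNA, the window of Col4a3, which had almost no RNA reads, and that of Agrn, the member with a peak over its listed start. Capitals mark the GC box GGGCGG or its complement CCGCCC.
Interval between Col4a2 and Col4a1, chr16:84885521-84885596, plus strand: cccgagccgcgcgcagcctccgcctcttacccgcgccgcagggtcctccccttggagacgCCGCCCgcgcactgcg
Upstream of Col4a3, chr9:91323740-91323989, plus strand: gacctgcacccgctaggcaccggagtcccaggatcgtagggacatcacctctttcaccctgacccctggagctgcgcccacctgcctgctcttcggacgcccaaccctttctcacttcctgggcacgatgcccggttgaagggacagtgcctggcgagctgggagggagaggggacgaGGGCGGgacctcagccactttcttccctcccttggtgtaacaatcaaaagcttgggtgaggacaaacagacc
Upstream of Agrn, chr5:172052826-172053075, minus strand: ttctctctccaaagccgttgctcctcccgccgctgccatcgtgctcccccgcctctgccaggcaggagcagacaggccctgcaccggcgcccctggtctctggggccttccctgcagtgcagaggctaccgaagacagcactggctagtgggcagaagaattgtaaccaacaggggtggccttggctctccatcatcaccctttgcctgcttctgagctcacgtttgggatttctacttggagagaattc
The windows of all 9 members were richer in G and C than the median of 51.2% over 33469 rat promoters, from 52.8% for Col4a5 to 75.2% for Col4a1. The GC box, searched on both strands, was found in 7 of the 9 windows, against 30.5% of all promoters, and was missing from those of Col4a4 and Agrn. CCAAT was found in 3 windows, those of Col4a1, Col4a2 and Nid1, against 34.0% of all promoters. TATAAA and the AP-1 site TGANTCA were found in 0 of the 9, against 12.9% and 6.34% of all promoters. All motifs were searched on both strands and matches that overlap each other were kept. A match is a description of the letters only, and the windows of Col4a1 and Col4a2 share the interval shown above.

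In RNA, nearly every member with enough reads was higher in vitamin C cells. Of the 8 members tested, 7 were higher and 0 lower (edgeR, Benjamini-Hochberg adjusted p under 0.05 over all genes), where 19.1% of the 12925 tested genes were higher and 21.0% lower. The groups of 3 libraries did not overlap for the same 7 members, where 54.7% of all tested genes did not overlap. The median log2 change, vitamin C over control, was 1.0 over the 8 members and -0.01 over all tested genes. The members were chosen with earlier results of these data known, so these shares describe them and carry no test of the set. With libraries scaled by all counted reads, 1642 genes were higher and 1117 lower, and the members again 7 and 0. Nid1 was the member that did not pass, and Col4a3 and Col4a4 had too few reads to be tested. Levels below are CPM of the reads in genes, scaled with TMM factors, as mean ± SD of 3 libraries, and fold changes carry the standard error (SE) of the edgeR fit. In these bulk samples a shift in the kinds of cells present and a shift in RNA per cell cannot be told apart.

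**Figure D1:**
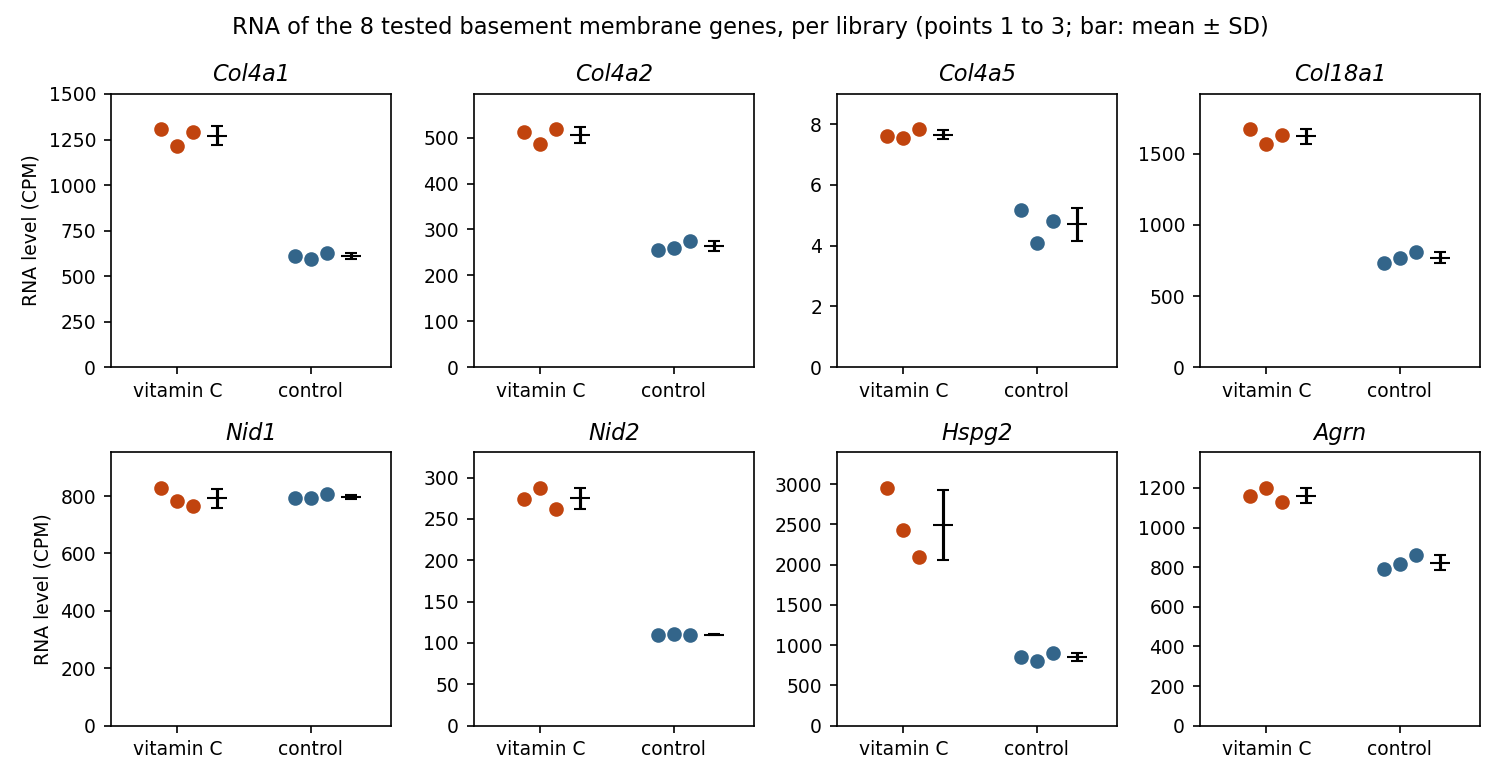
RNA level in CPM (vertical axes, starting at 0) of the 8 members tested, in vitamin C and control libraries. Each point is a library and each bar the mean ± SD of 3 libraries; 7 of the genes show no overlap between groups, and Nid1 overlaps.

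The major collagen IV chains moved together. Col4a1, which encodes the most used chain of the general trimer, had 1307, 1212 and 1293 CPM in vitamin C libraries, against 611, 596 and 629 CPM in control libraries. Every vitamin C library lay above every control library, and the change was 1.05 ± 0.06 (edgeR adjusted p = 4.50e-06). Col4a2, its partner across the shared interval, had 512, 486 and 519 CPM in vitamin C libraries, against 256, 260 and 276 CPM in control libraries, a change of 0.94 ± 0.06 (edgeR adjusted p = 7.39e-06). Col4a1 was thus 2.08-fold and Col4a2 1.92-fold higher in vitamin C cells. The ratio of Col4a1 to Col4a2 reads within a library needs no scaling between libraries. It was 2.55, 2.49 and 2.49 in vitamin C libraries and 2.39, 2.29 and 2.28 in control libraries. The ratios did not overlap, with a difference of 0.12 on the log2 scale (two-sided exact permutation test, p = 0.1, which is the smallest that 3 against 3 libraries can give).

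The other chains among the members were scarce. A further collagen IV chain gene, Col4a6, had no symbol here and was not read. Col4a5, an X-linked chain of the α3α4α5 trimer, had 7.60, 7.54 and 7.84 CPM in vitamin C libraries, against 5.19, 4.10 and 4.81 CPM in control libraries. These values rest on 115 to 223 reads a library. The groups did not overlap, and the gene rose by 0.71 ± 0.11 (edgeR adjusted p = 0.00146). Col4a3 had 1, 2 and 4 reads in vitamin C libraries and 0, 4 and 0 reads in control libraries. Col4a4 had 0, 1 and 4 reads in vitamin C libraries and 3, 2 and 2 reads in control libraries. A count of 0 allows up to 3 reads, which is 0.105 to 0.118 CPM in vitamin C libraries and 0.0886 to 0.126 CPM in control libraries, so a difference in Col4a3 or Col4a4 was not detectable at this depth. These limits cover counting error only.

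Col18a1 encodes the core of type XVIII collagen, which carries heparan sulfate and from which endostatin is cut. It had 1674, 1567 and 1630 CPM in vitamin C libraries, against 734, 770 and 809 CPM in control libraries. The groups were far apart relative to their spread, and the change was 1.07 ± 0.06 (edgeR adjusted p = 4.95e-06), a 2.11-fold difference.

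The nidogens, which link laminin to type IV collagen, parted from each other. Nid2 had 275, 288 and 262 CPM in vitamin C libraries, against 110, 111 and 109 CPM in control libraries. It rose by 1.32 ± 0.06 (edgeR adjusted p = 1.81e-06), and its control libraries were nearly identical. Nid1 had 829, 784 and 764 CPM in vitamin C libraries, against 792, 793 and 806 CPM in control libraries. These ranges overlap, and the change of -0.01 ± 0.05 did not pass (edgeR adjusted p = 0.911). Its sign turned under other scaling, with 0.01 in edgeR with RLE factors. Within a library, Nid2 had 0.331, 0.367 and 0.343 reads per Nid1 read in vitamin C cells, against 0.139, 0.139 and 0.136 in control cells. The difference in this ratio was 1.33 on the log2 scale (two-sided exact permutation test, p = 0.1, which is the smallest possible here).

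The proteoglycans both rose, by unequal amounts. Hspg2 encodes perlecan, the large heparan sulfate proteoglycan of basement membranes. It had 2955, 2426 and 2099 CPM in vitamin C libraries, against 852, 807 and 907 CPM in control libraries. The vitamin C libraries were all above the controls but spread more than those of the other tested members (2493 ± 432 CPM, against 855 ± 50.4 CPM in controls), and the change of 1.54 ± 0.12 was the largest of the 8 (edgeR adjusted p = 2.34e-05). Vitamin C replicate 1, the highest, also had the highest share of reads aligned at several places, 44.9%, against 32.7% to 42.5% in the other RNA libraries. The part of this in the result was not tested beyond leaving the library out, and without it the change was 1.4 and passed. Agrn encodes agrin, best known as the organiser of acetylcholine receptors at the neuromuscular junction. It had 1157, 1201 and 1127 CPM in vitamin C libraries, against 788, 814 and 863 CPM in control libraries, a rise of 0.50 ± 0.06 (edgeR adjusted p = 0.000243). There were 2.15 ± 0.36 Hspg2 reads per Agrn read in vitamin C cells and 1.04 ± 0.05 in control cells (SD, n = 3 each), a log2 difference of 1.03 (two-sided exact permutation test, p = 0.1, which is the smallest possible here). In all, 3 such ratios were compared, and Benjamini-Hochberg adjustment over them leaves each permutation p at 0.1.

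Likeness to Col4a1 was measured as the Euclidean distance of centred log2 CPM, with 0.5 added, over the 6 RNA libraries. Tested genes with a symbol were ranked, except those whose symbol begins with LOC, RGD, AABR, Rn or AC and a digit. The nearest of the ranked genes was Col18a1, at a distance of 0.09. It was followed by Sik1 at 0.10 and by Ccdc80, Alx4 and Slc6a9 at 0.12. Col4a2 ranked 10th, Nid2 184th, Col4a5 451st, Hspg2 790th, Agrn 843rd and Nid1 4793rd. These genes share the same libraries, so the order describes them and carries no test.

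Other basement membrane genes are given from lists written with earlier results of these data known. Of 6 tested laminin chain genes, 4 rose and 0 fell, and the median was 0.31. Lama2, a laminin α chain, rose by 1.34 ± 0.12 to 1147 ± 204 CPM in vitamin C cells, against 453 ± 22.5 CPM in controls. Lamb1 rose by 0.93 ± 0.06 and Lamc1 by 0.43 ± 0.06. Of 12 other basement membrane proteins, 10 rose and 1 fell, with a median of 1.11. The largest changes there were in genes of low level: the collagen Col15a1 rose by 2.68 ± 0.28 (2.86 ± 0.63 CPM in vitamin C cells and 0.44 ± 0.14 CPM in controls), Frem2 by 1.64 ± 0.29 and the fibulin Fbln2 by 1.5 ± 0.11. Pxdn, peroxidasin, which crosslinks collagen IV, was the gene of this list that fell (-0.16 ± 0.05, edgeR adjusted p = 0.0457). The shares of all tested genes higher and lower given above are the background for each of these counts.

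Receptors and the enzymes of matrix making went both ways, as did tested genes at large. Of all 12925 tested genes, 19.1% were higher and 21.0% lower, the background for each count below. Counts near these shares are not read as results about a list. Of 12 tested receptors for collagen IV, laminin, perlecan or agrin, 7 rose and 3 fell. Itgb4, the β4 integrin chain, rose by 1.98 ± 0.05, Itga1, the α chain of a collagen IV receptor, by 1.66 ± 0.11, and Musk, the kinase of the agrin receptor, by 1.46 ± 0.16. Of 10 tested genes for collagen chain modification and folding, 5 rose and 2 fell. The prolyl 4-hydroxylase subunit P4ha3 rose by 1.42 ± 0.14 and the collagen chaperone Serpinh1 by 0.57 ± 0.06, whereas the prolyl 3-hydroxylase P3h2 fell by 0.84 ± 0.17 on the log2 scale. Of 12 tested genes for heparan sulfate synthesis and editing, 2 rose and 5 fell, with a median of -0.09. Xylt1, which starts the chain, fell by 1.11 ± 0.39 at a level under 1 CPM. The exostosin Extl3 fell by 0.59 ± 0.07, and Sulf2, an extracellular sulfatase, rose by 0.83 ± 0.07. Of 6 tested proteases that act on basement membranes, 3 rose and 3 fell. Prss12, neurotrypsin, which cuts agrin, rose by 1.54 ± 0.41 at a level under 1 CPM, the gelatinase Mmp2 rose by 0.74 ± 0.05, and Adamts1 fell by 0.70 ± 0.06.

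Markers were read beside these results. The same shares of all tested genes, 19.1% higher and 21.0% lower, are the background for the counts here. The Schwann cell markers summed to 9963 to 10821 CPM in vitamin C libraries and 10824 to 11020 CPM in controls, and of 7 tested, Cdh19 rose while S100b and Erbb3 fell. Vascular cells also make these proteins. Of the endothelial list, Tek was tested and rose (3.51 ± 0.58 CPM in vitamin C cells and 1.57 ± 0.28 CPM in controls), Cdh5 was at 0 reads in all 6 libraries, and Kdr, Emcn, Vwf and Tie1 had at most 3 reads a library. Pericyte and smooth muscle markers rose in 3 of 4 tested cases and fell in 0, and the list summed to 194 to 221 CPM in vitamin C libraries and 78.2 to 81.3 CPM in controls. Its markers Rgs5, Notch3, Cnn1 and Acta2 had at most 10 reads a library. Of the fibroblast list, Col1a1 rose, Pdgfra, Pi16 and Gsn fell, and Dcn was at 0 reads. The list summed to 9271 to 10782 CPM in vitamin C libraries and 4513 to 4707 CPM in controls, nearly all of it Col1a1. Among the perineurial markers, Sfrp4 and Slc2a1 fell while Ntn4 and Itgb4 rose, for a sum of 438 to 451 CPM in vitamin C libraries and 208 to 235 CPM in controls. All 4 tested skeletal muscle genes rose (434 to 444 CPM in vitamin C libraries, 97.9 to 144 CPM in controls). Of 4 tested neuronal markers, 1 rose and 2 fell (801 to 901 CPM in vitamin C libraries, 921 to 989 CPM in controls). Of the macrophage list, Cd68 was tested and did not pass, and the list summed to 1.42 to 1.79 CPM in vitamin C libraries and 1.21 to 1.57 CPM in controls. The part of other cell types in the members' changes was not tested.

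In hMeDIP, more of the members' peaks were higher than lower in vitamin C cells, and this split depends on where in the peak list they stand. Of the 156 peaks, 87 were higher, 33 lower and 36 did not pass (edgeR, adjusted over all peaks), where 36.9% of all peaks were higher and 36.3% lower. The median change of the members' peaks was 0.31, against 0.05 for all peaks. Replicates 1 and 3 of hMeDIP differed by no more than sampling noise within each group and were summed and counted as 1 sample, so n = 2 in each group. The peak list runs through the genome once in its first 68432 rows and a second time from row 68433 on, and direction follows these stretches over the whole list. In the first stretch, 2.89% of all peaks were higher and 87.1% lower, and in the second 52.6% were higher and 12.8% lower. Of the members' peaks, 31 stand in the first stretch (3 higher, 22 lower) and 125 in the second (84 higher, 11 lower). No source used here gives the rule that made the stretches, and its part in any direction below was not tested.

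Within the second stretch, 67.2% of the members' peaks were higher and 8.80% lower. Among its gene-body peaks, 80 of 117 member peaks were higher (68.4%) and 9 lower (7.69%), where 57.2% of all gene-body peaks of this stretch were higher and 11.3% lower. The median change of these member peaks was 0.43, against 0.34 for all gene-body peaks of the stretch. All member peaks of the stretch had a median length of 954 bases, against 715 for all its peaks. These shares are thus not like for like, and the part of length was not tested. In the first stretch, 20 of 28 gene-body peaks of the members were lower (71.4%), against 82.5% of all. Of the members' 26 peaks longer than 2000 bases in the second stretch, 23 were higher and 1 lower, where 57.7% of all 7611 such peaks were higher and 17.1% lower. This length cut was set with results known, and these member peaks all belong to Col4a1, Col18a1, Nid2 or Hspg2. Scaling matters too: with libraries scaled by all counted reads rather than TMM on peaks, 121 member peaks were higher and 17 lower, where 60.1% of all peaks were higher and 23.6% lower. That scaling moved the median of all peaks from 0.05 to 0.49, so changes here are relative to the bulk of peaks.

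**Figure D2:**
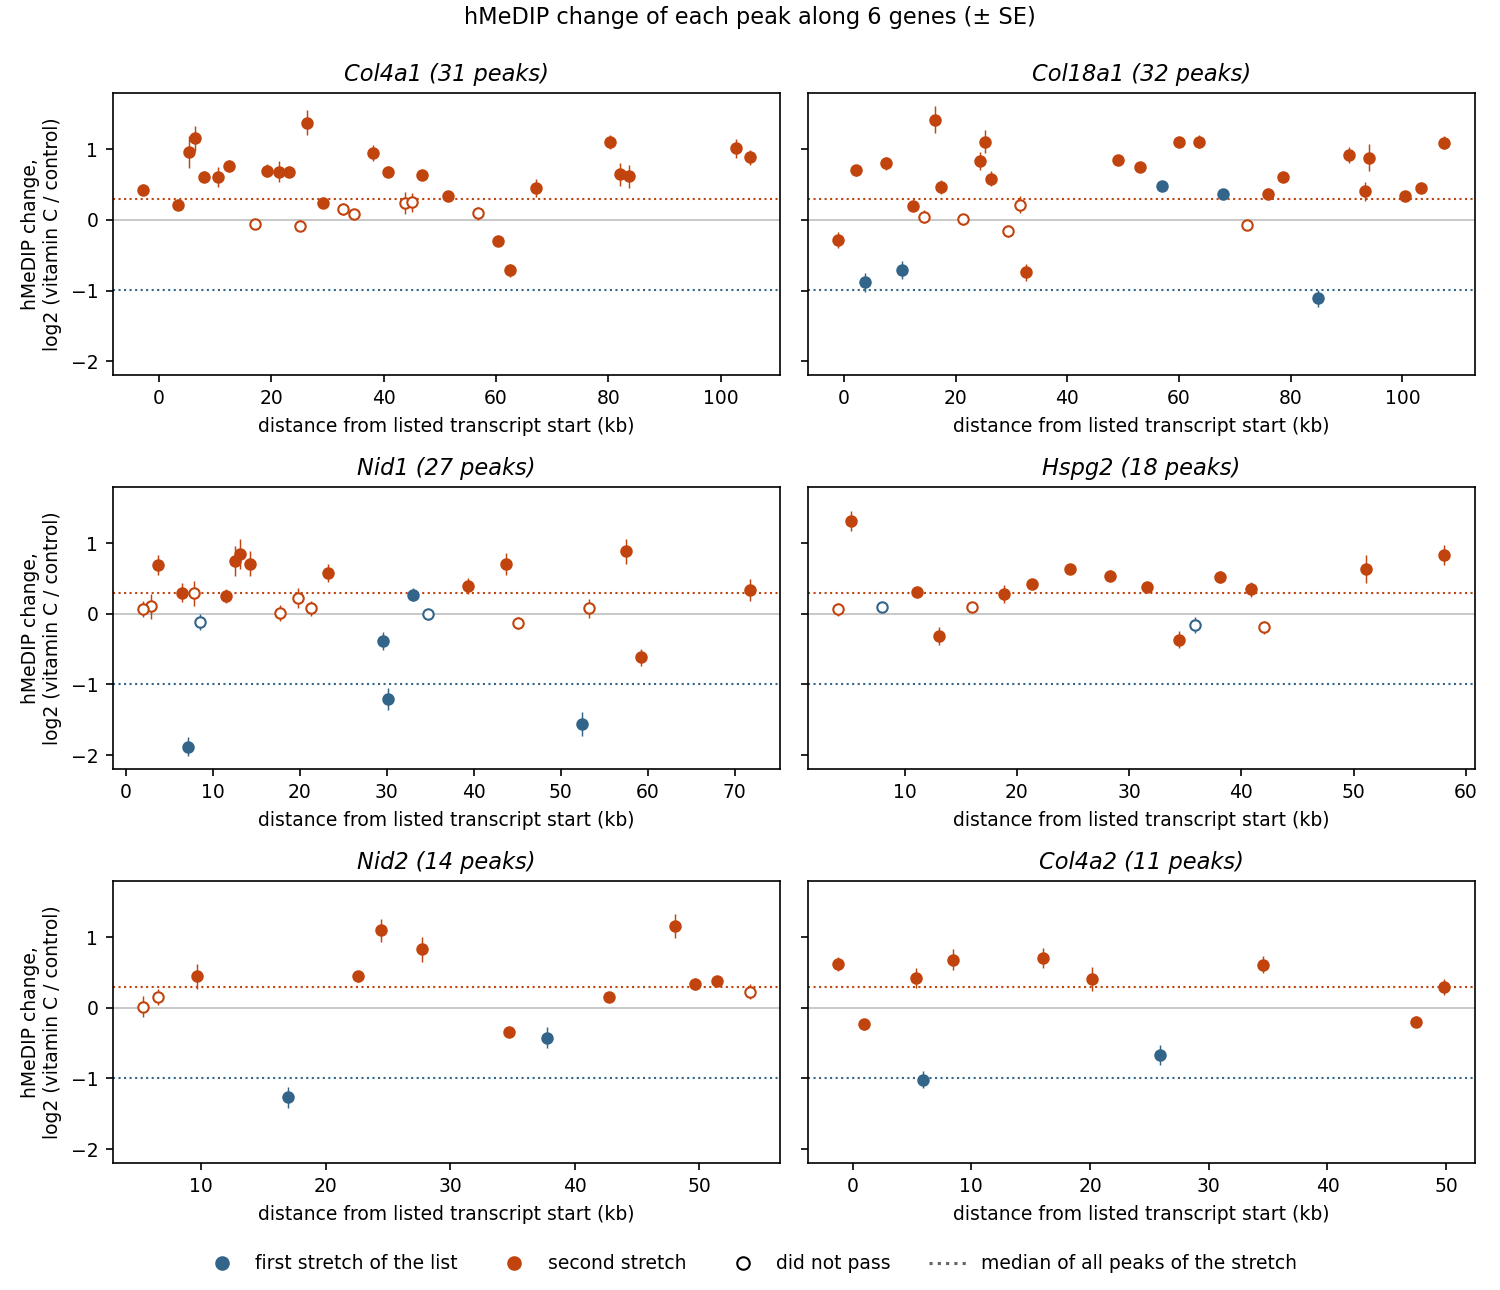
Change in hMeDIP, log2 of vitamin C over control ± SE (vertical axes), of each peak against its distance in kb from the listed transcript start, for the 6 members with the most peaks. Colours give the stretch of the list, open points did not pass, and dotted lines are the medians of all peaks of each stretch, -0.99 and 0.30; Col4a1 has 22 of 31 peaks higher, Col18a1 22 of 32 and Nid1 12 of 27.

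Distances of peaks from a start are to the middle of the peak, here and below. Col4a1 held 31 peaks, all of the second stretch, of which 22 were higher (71.0%) and 2 lower (6.45%). Of all peaks of that stretch, 52.6% were higher and 12.8% lower. Its most significant peak was in the gene body on chromosome 16, 83601505 to 83603369, 80275 bases from the listed start (positions are as the peak list gives them, and no source used here gives their genome build). That peak had 7.37, 7.56 and 7.57 CPM in vitamin C libraries, against 3.35, 3.38 and 3.79 CPM in control libraries, a change of 1.1 ± 0.10 (edgeR adjusted p = 8.65e-13). The 2 lower peaks of the gene were neighbours, 60416 and 62475 bases from the start. The peak at 60416 bases (-0.30 ± 0.06) was 0.15 and did not pass when scaled by all counted reads. The other, at 83584140 to 83585134, had 4.62, 4.85 and 5.23 CPM in vitamin C libraries, against 7.82, 8.70 and 7.86 CPM in control libraries (-0.71 ± 0.09). At both of the named peaks the libraries of the groups did not overlap. Col4a2 held 11 peaks, all of which passed, 7 higher and 4 lower. In the second stretch 7 of its 9 peaks were higher, and its 2 peaks of the first were both lower. Its highest-ranked higher peak lay 1238 bases before the start (0.62 ± 0.10) and its most significant lower peak 5962 bases inside the gene, in the first stretch (-1.02 ± 0.12).

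Among the scarce collagen IV chains, Col4a3 held 6 peaks, of which 0 were higher and 4 lower, and 5 of the 6 stand in the first stretch. The most significant, on chromosome 9 at 88399338 to 88400147, had 3.06, 2.84 and 2.97 CPM in vitamin C libraries, against 6.50, 7.10 and 7.40 CPM in control libraries (-1.24 ± 0.11). Col4a4 held 10 peaks, 3 higher and 4 lower. Of its 7 peaks of the second stretch, 3 were higher and 1 lower, and its 3 peaks of the first were all lower. The most significant in each direction were a peak at 14142 bases (-1.52 ± 0.16, first stretch) and one at 22006 bases (1.26 ± 0.22, second stretch). Col4a4 has 2 listed transcripts, and both distances are from the listed start further from Col4a3. Col4a5 held 2 peaks, both in the first stretch and both lower, and the more significant, at 112940748 to 112941096 on the X chromosome, averaged 0.73 ± 0.09 CPM in vitamin C cells and 2.26 ± 0.06 CPM in controls (SD, n = 2 each). Its reads numbered 24 to 75 a library. The median of all peaks of the first stretch was -0.99.

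Col18a1 held 32 peaks, 22 higher and 5 lower. Of these, 27 stand in the second stretch, 20 of them higher (74.1%), where 52.6% of all peaks of the stretch were higher. Its most significant peak, on chromosome 20 at 12283430 to 12286975, had 25.3, 25.7 and 25.0 CPM in vitamin C libraries, against 11.1, 12.5 and 12.1 CPM in control libraries, a change of 1.1 ± 0.06 (edgeR adjusted p = 2.17e-19). The largest change of the gene, and of all 156 peaks upward, was 1.42 ± 0.19 at a smaller peak 16235 bases from the start. Input DNA at the most significant peak changed by 0.11 (edgeR adjusted p = 0.987). That peak belongs to a run of 6 consecutive peaks between 12272689 and 12295570, noticed after the values were seen, all of which were higher, by 0.85, 0.74, 0.47, 1.1, 1.11 and 0.37 in order along the gene. The peaks of 0.47 and 0.37 in this run stand in the first stretch and are 2 of the 3 member peaks of that stretch that were higher. The most significant lower peak of the gene, at 12309837 to 12310436 in the first stretch, averaged 2.99 ± 0.61 CPM in vitamin C cells and 6.88 ± 0.79 CPM in controls (-1.11 ± 0.12).

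Nid1 held 27 peaks, 12 higher, 5 lower and 10 that did not pass. In the second stretch, 11 of its 20 peaks were higher (55.0%), close to the 52.6% of all peaks of that stretch. Its most significant peak was a lower one of the first stretch on chromosome 17, at 90619558 to 90620355, with 1.45, 1.47 and 1.44 CPM in vitamin C libraries, against 4.78, 5.67 and 5.63 CPM in control libraries. At -1.88 ± 0.13 this was the largest change of the 156 peaks (edgeR adjusted p = 4.64e-16). Its most significant higher peak, at 57497 bases, changed by 0.89 ± 0.18. Nid2 held 14 peaks, 8 higher and 3 lower. All 8 higher ones were among its 12 peaks of the second stretch (66.7%). The most significant higher peak, on chromosome 15 at 4903421 to 4904174, had 3.34, 2.74 and 3.51 CPM in vitamin C libraries, against 1.35, 1.69 and 1.28 CPM in control libraries (1.16 ± 0.16). Its most significant lower peak, at 17009 bases in the first stretch, changed by -1.27 ± 0.15. Whether the nidogens' peaks differ from each other in direction was not tested.

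Hspg2 held 18 peaks, 11 higher and 2 lower. These 13 were all among its 16 peaks of the second stretch (68.8% higher), where 52.6% of all peaks were higher. The most significant, on chromosome 5 at 155835586 to 155838173, had 15.3, 16.3 and 15.0 CPM in vitamin C libraries, against 9.78, 10.4 and 10.2 CPM in control libraries (0.64 ± 0.07). A peak 5221 bases from the start had the largest change of the gene, 1.31 ± 0.14. The more significant lower peak, at 34403 bases (-0.37 ± 0.12), was 0.07 and did not pass when libraries were scaled by all counted reads. Agrn held 5 peaks, 2 higher and 2 lower. The higher ones, both of the second stretch, lay 1985 bases before the start (0.68 ± 0.09) and 6478 bases inside another listed transcript (0.53 ± 0.07). The more significant lower one, at 18091 bases in the first stretch, averaged 5.62 ± 0.30 CPM in vitamin C cells and 10.9 ± 0.43 CPM in controls (-0.93 ± 0.08).

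Peaks that the list labels as promoter numbered 11 over 7 members, with 4 higher, 4 lower and 3 that did not pass, where 42.7% of all peaks with these labels were higher and 30.2% lower. Among them, a peak over the listed start was present in Agrn only (chromosome 5, 173609905 to 173612245). It had 14.7, 14.5 and 14.1 CPM in vitamin C libraries, against 14.3, 13.5 and 13.7 CPM in control libraries, and these ranges overlap (0.08 ± 0.06, edgeR adjusted p = 0.279). Scaled by all counted reads, it was higher by 0.53 (edgeR adjusted p = 0.000239). The Col4a2 peak with its middle 933 bases inside the start was lower (-0.24 ± 0.08), with overlapping libraries. It was 0.21 and did not pass when scaled by all counted reads. This peak, at 83436709 to 83438548, reaches almost to the listed start at 83438561. The Col4a1 peak 2821 bases before its listed start was higher (0.43 ± 0.07). Col18a1 had a lower peak 1084 bases before the start (-0.29 ± 0.12), which was 0.14 and did not pass when scaled by all counted reads, and a higher one 2213 bases inside it (0.70 ± 0.08). Col4a3 and Col4a4 each had a lower peak near a listed start (-0.89 ± 0.17 at 737 bases and -1.13 ± 0.15 at 1158 bases before it), both of the first stretch. Col4a4 has 2 listed transcripts, and its peak, at 88257079 to 88257467, is measured from the start further from Col4a3. The listed Col4a4 start that faces Col4a3 is at 88343609, so this peak does not lie at that start. The 2 promoter peaks of Nid1, at 2011 and 2846 bases, did not pass (0.07 ± 0.12 and 0.11 ± 0.18). Scaled by all counted reads, both were higher (0.49 and 0.53). In the peak list, the starts of Col4a2 and Col4a1 lie 83600 bases apart, not next to each other as in GRCr8, so the sequences above were not matched to peaks. Between those listed starts stand 32 peaks that the list does not give to a member, 17 of them higher and 4 lower. Of these, 4 are of the first stretch and the rest of the second, where 52.6% of all peaks were higher and 12.8% lower. The median change of the 32 was 0.22, against 0.30 for all peaks of the second stretch.

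Summed over all peaks of a gene, hMeDIP reads were higher for 5 members and lower for 3 of the 10, where 37.3% of 17003 genes were higher and 37.3% lower. Col18a1 rose by 0.46 ± 0.03, Col4a1 by 0.36 ± 0.03, Hspg2 by 0.32 ± 0.03, Nid2 by 0.18 ± 0.03 and Col4a2 by 0.09 ± 0.04. Col4a5 fell by 1.17 ± 0.14, Col4a3 by 0.61 ± 0.06 and Col4a4 by 0.15 ± 0.05. Nid1 (0.05 ± 0.03, edgeR adjusted p = 0.182) and Agrn (0.03 ± 0.04, edgeR adjusted p = 0.446) did not pass. Peaks of the second stretch alone were summed in a further fit, first with the scaling of all peaks kept. Of the 9 members with such peaks, 8 were then higher and 0 lower, where 9163 of 14087 genes were higher and 1381 lower, with a median of 0.26 over these genes. The members' values ran from 0.15 for Col4a4 to 0.61 for Agrn, and Col4a3 (0.15) did not pass. Col4a1, whose peaks all stand in that stretch, was at 0.36 as before. With TMM factors computed anew on these sums, which sets the median of all genes to 0.01, Col18a1 (0.28), Col4a1 (0.11), Hspg2 (0.10) and Agrn (0.36) passed as higher. Col4a2, Nid1 and Nid2 (-0.01 each) and Col4a3 and Col4a4 (-0.10 each) then did not pass. Col4a5 had no peak in that stretch. With scaling by all counted reads, 8 members were higher and 1 lower, where 11042 of all genes were higher and 2971 lower.

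**Figure D3:**
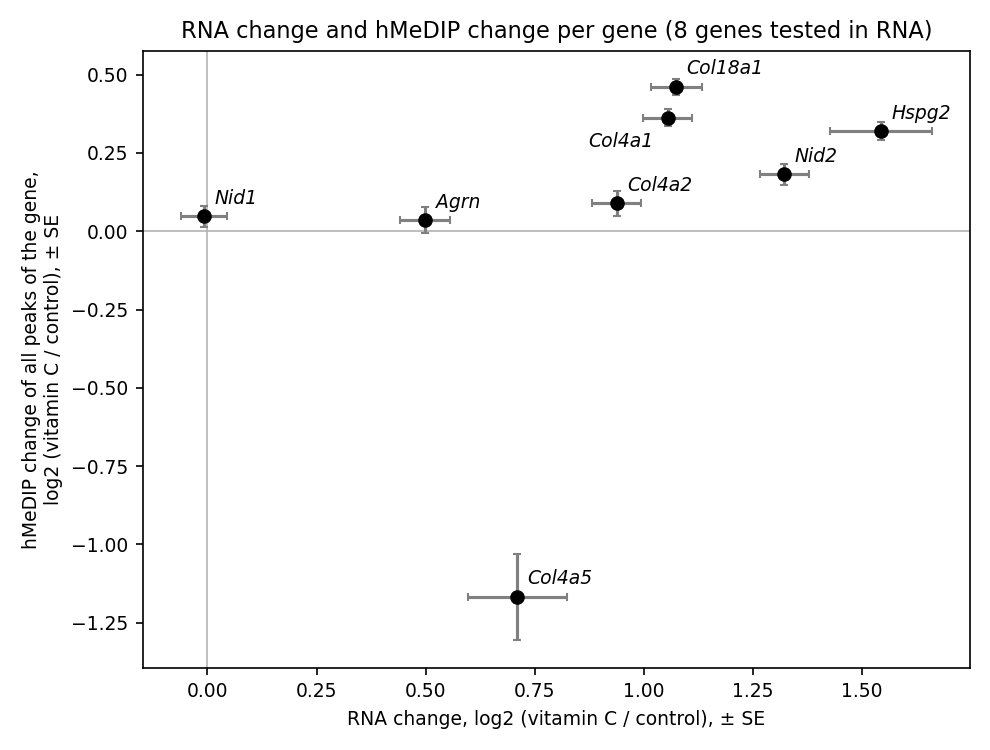
Change in RNA (horizontal axis) against change in hMeDIP reads summed over all peaks of the gene (vertical axis), both log2 of vitamin C over control ± SE, for the 8 members tested in RNA. Col18a1, Col4a1, Nid2 and Hspg2 are higher in both, Nid1 is near 0 in both, and Col4a5 is higher in RNA and lower in hMeDIP.

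Set beside RNA, the members higher in both measures were Col4a1, Col4a2, Col18a1, Nid2 and Hspg2. The hMeDIP sum of Col4a2 passed narrowly (0.09 ± 0.04, edgeR adjusted p = 0.0449). On second-stretch peaks with TMM factors computed anew, Col4a2 and Nid2 were at -0.01 each and did not pass. Agrn rose in RNA without a change that passed in its hMeDIP sum. Col4a5 rose in RNA by 0.71 while its peaks, few and all of the first stretch, fell. Nid1 passed in neither. Hspg2, with the largest RNA change of 1.54, had a smaller hMeDIP change than Col18a1, whose RNA changed by 1.07. With 8 genes, no relation between the measures was tested.

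The input libraries gave no called change at these peaks, where they held 7 to 271 reads a library, against 14 to 1666 in hMeDIP. Changes in input at single peaks reached 0.64 in Nid1 and -0.55 in Hspg2. At such counts, the lack of calls does not show that input was unchanged at each peak. Of 215759 peaks tested in input, 0 were called (0.0% by edgeR, and 0 by DESeq2). An unadjusted edgeR p under 0.05 was found at 10 of the members' 156 peaks. The share of all input peaks with such a p was not counted, so these 10 are not read as changes. The median input change over the members' peaks was -0.003. In a fit of hMeDIP over input, 67 member peaks were higher and 26 lower, where 20.8% of all peaks were higher and 28.3% lower. By stretch, 2 were higher and 19 lower in the first, and 65 higher and 7 lower in the second. Shares of all peaks by stretch are not given for this fit. The members' peaks were also longer (median 861 bases, against 639 for all peaks), so the comparison is not like for like. Of the 87 peaks higher in hMeDIP alone, 66 were also higher over input, and of the 33 lower ones, 25 were also lower. No peak was called in opposite directions by the 2 fits.

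**Figure D4:**
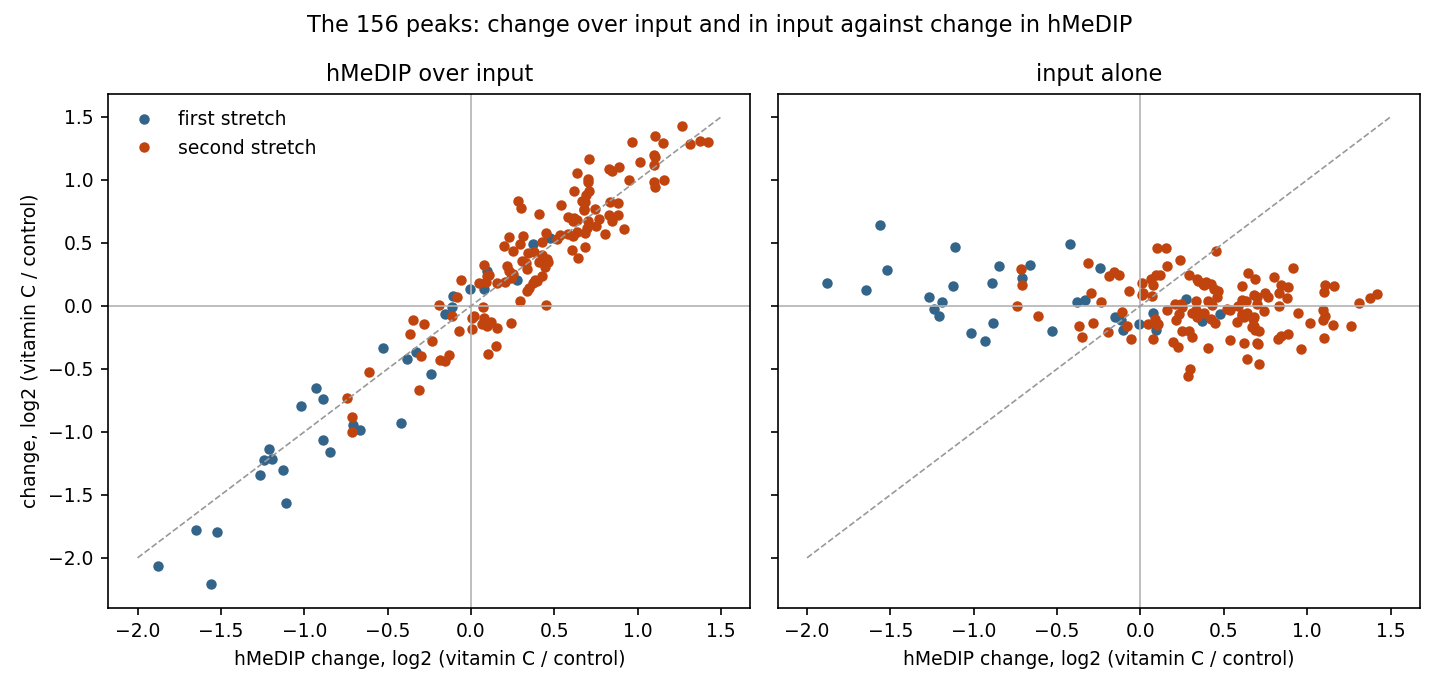
Change over input (left) and change in input alone (right) against the change in hMeDIP, all log2 of vitamin C over control, for the 156 peaks, coloured by stretch of the peak list. The dashed line marks equal change. Over input 67 peaks were higher and 26 lower, and input alone, with a median of -0.003, had no peak called.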

How the data were processed

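Counts, as whole numbers, were deposited by the authors: reads per gene in RNA and reads per peak in hMeDIP and input, with a peak list. Tools named in the submitters' processing notes are STAR, BWA, HTSeq, Trim Galore and CASAVA 1.4. No source used here gives which tool did which step, the genome build, the peak caller or the strand setting of counting, so RNA of overlapping or antisense genes cannot be told apart. Rows that name no gene or peak held 42.3% to 53.9% of counted RNA reads, 56.1% to 69.2% of those in hMeDIP and 91.3% to 91.6% of those in input, and were left out.

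Samples were grouped by their labels. Tests on counts used edgeR 4.0.16 under R 4.3.3 (quasi-likelihood F test, TMM, filterByExpr, Benjamini-Hochberg at 0.05 over all features), treatment being the only term; hMeDIP over input had a term per DNA sample. Two-sided exact permutation tests compared ratios. hMeDIP replicates 1 and 3 had a chi-square per degree of freedom of 0.896 (vitamin C) and 0.963 (control), against 1.08 to 1.09 and 1.10 to 1.47 for the other pairs, and were summed in both groups. The written limit of 1.1 would have summed the controls only, and that version is among the alternatives. All input pairs were at 0.978 to 0.988, and the fit on input alone kept 3 libraries a group. Input libraries of a group thus also differed by no more than sampling noise, and may not be distinct samples. Per-library hMeDIP levels are scaled over 6 libraries, means and changes over the summed ones.

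The scripts were tested on simulated data. Genes without a peak have no symbol here (17003 of 32883 have one). The members and lists were chosen with earlier results of these data known. All members were named, with up to 3 genes past the threshold per list, by size of change, each member's most significant peak in each direction, all promoter peaks and the 5 genes nearest to Col4a1. Pxdn, Cdh19, S100b, Erbb3 and other markers by name, the second lower Col4a1 peak, the Hspg2 peak at 5221 bases, the Col18a1 peak at 16235 bases and the Col18a1 run were added after values were seen. The counts by region class and the length cut of 2000 bases were also set with results known. Alternatives were RLE factors, DESeq2 1.42.0, other filters and scaling, the replicate number as a block, subsets of peaks and leaving out replicates; the second-stretch sums and the subsets with kept scaling were added after the data were seen. Also used were matplotlib 3.10.9, scipy 1.17.1, pandas 2.3.3, numpy 2.4.6 and Python 3.11.15.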

Additional observations from a re-analysis of the deposited data

How the results depend on the processing

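The 7 higher and 0 lower RNA members were found under every RNA alternative run, including the replicate block, which gave 7 and 0. Same-numbered RNA libraries had deviation correlations of 0.275, 0.176 and 0.045, hMeDIP libraries -0.028, -0.203 and -0.112, so the numbers were not taken as pairs. The block gave 85 higher and 34 lower member peaks and 5 higher and 3 lower gene totals. Nid1 in RNA turned sign with RLE factors (0.009725), DESeq2 (0.003007) and no filter (0.003917), and ran from -0.0418 to 0.0173 with a library left out. Scaling hMeDIP by all counted reads gave 17 lower member peaks, 8 higher and 1 lower gene totals, and turned the Col4a4 total to 0.2751 and the peaks of Col18a1 at -1084 to 0.1357, Col4a2 at 933 to 0.2114 and Hspg2 at 34403 to 0.06817. It also gave calls as higher to the Nid1 (0.4777) and Agrn (0.4604) totals, the Agrn peak at 127 (0.5302) and the Nid1 peaks at 2846 (0.5256) and 2011 (0.4935), and took the call of the Col4a3 total (-0.204). Second-stretch peaks alone, with the scaling of all peaks kept, gave 8 higher and 0 lower totals, turned Col4a3 to 0.1458 and Col4a4 to 0.1522, and brought Nid1 (0.2407) to a call. With the scaling computed anew on those sums, they gave 0 lower totals and turned Col4a2 to -0.006309, Nid1 to -0.009883 and Nid2 to -0.005688, so these turns came with the scaling. Gene-body peaks alone turned the Agrn total to -0.1819 (-0.1772 with the scaling kept) and took the call of the Col4a4 total (-0.08395). The Col4a2 total lost its call with RLE factors, DESeq2, gene-body peaks, and without vitamin C replicate 2 or 3 or control replicate 1 or 2 (0.06935 to 0.09236). Among named peaks, Col18a1 at -1084 (-0.3442), Col4a2 at 933 (-0.2706) and Hspg2 at 34403 (-0.3736) lost their calls in DESeq2. Without a library they lost them at -0.2053 (vitamin C replicate 2) and -0.207 (control replicate 1), at -0.1569 (control replicate 3) and at -0.258 (control replicate 1), in that order of peaks. Nid1 at 2011 ran from -0.000126 to 0.1377 with a library left out. Over all features, counts moved by over 1.5 times in RNA scaled by all counted reads (1642 higher and 1117 lower), in RNA without control replicate 2 (1784 lower), in hMeDIP peaks with DESeq2 (43730 higher) or all counted reads (129858 higher and 51017 lower), in gene totals with all counted reads (11042 higher and 2971 lower) and in totals of second-stretch peaks with the scaling kept (1381 lower). Otherwise the cause was not tested. Depth limits Col4a3 and Col4a4 in RNA. With n = 2 in hMeDIP, the spread rests on few samples.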
